A study of Homo sapiens with 6 samples.

Results

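Caspases, the proteases that carry out apoptosis, were examined together with APAF1 and XIAP in COV434 cells, a human line labelled as granulosa cells (GCs). The 8 genes CASP1, CASP2, CASP6, CASP8, CASP9, CASP10, APAF1 and XIAP were taken by their symbols from a table of 16798 coding genes, and all 8 had a row. Total RNA of 6 samples was sequenced in bulk, comprising 3 controls and 3 samples that received 15 µM 4HC, the active metabolite of cyclophosphamide (CTX), for 24 h. The controls are tagged as wild type and carry no treatment tag, and the treated samples are tagged as CTX induced. The comparison asks whether the transcripts of the caspase machinery differ between COV434 cells with and without the drug.

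Caspases are made as inactive precursors. Initiator caspases are activated on platforms: caspase-9 on the apoptosome that APAF1 builds with cytochrome c after mitochondrial release, caspase-8 and caspase-10 at death receptors, and caspase-2 on a complex built by PIDD1 and CRADD. Initiators then cleave executioner caspases, and XIAP binds and blocks caspase-9 and some of the executioners. In the ovary, apoptosis of GCs accompanies follicle loss, and since much of the control of these proteases acts on the protein, a level of mRNA is not a measure of protease activity.

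The 6 caspases share the catalytic cysteine that cuts the substrate. The coding bases around its codon are shown because they are the sequence feature that makes these members 1 family. Each line gives 27 bases of the GENCODE release 29 transcript (GRCh38), 5′ to 3′, with the cysteine codon in capitals.
CASP9: ttcatccaggccTGTggtggggagcag
CASP8: tttattcaggctTGTcagggggataac
CASP10: ttcatccaggccTGCcaaggtgaagag
CASP2: ttcatccaggccTGCcgtggagatgag
CASP6: atcattcaggcaTGTcggggaaaccag
CASP1: atcatccaggccTGCcgtggtgacagc
The codon was found once in each of the 6 coding sequences, by a search of the translated frame for glutamine, alanine, cysteine, any residue and glycine. It was codon 287 of 416 in CASP9, 345 of 464 in CASP8, 358 of 479 in CASP10, 320 of 452 in CASP2, 163 of 293 in CASP6 and 264 of 383 in CASP1. In CASP8 the window lies within 1 exon at chr2:201285079-201285105 and in CASP10 at chr2:201209336-201209362, both on the plus strand. In the other 4 genes it spans an exon junction. Between any pair of the windows 17 to 23 of the 27 bases were identical, with CASP2 and CASP10 the closest pair at 23. In APAF1 and XIAP, which are no proteases, the same search of 4 and 2 coding sequences found no such codon.

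Library depth was even, from 16133786 to 16702316 expected counts per sample. Replicates were close, with a biological coefficient of variation of 0.0277, so that small differences could pass the test. Even so, no 2 of them agreed within sampling noise (chi-square of 1.70 to 2.46 per gene). Of 13 granulosa markers with a row, 8 stayed below 1 CPM (counts scaled to a library of 1000000 by TMM) in every sample, among them FOXL2 (at most 0.185 CPM), FSHR and CYP19A1 (both at most 0.0615 CPM), whereas WT1 lay between 169 and 219 CPM and ESR2 between 18.1 and 20.5 CPM. The label of GCs therefore rests on few of the defining markers. The summed CPM of the granulosa list was 254 to 263 in control and 207 to 213 in 4HC, and WT1 made up most of it. The part of this shift in the results below was not tested. Of the markers of other cell types, those of fibroblasts summed to 48.8 to 54.2 CPM in control and 47.5 to 54.9 CPM in 4HC, most of it DCN (42.9 to 50.6 CPM over all samples), those of leukocytes to 3.45 to 5.25 CPM over all samples and those of epithelium to at most 0.432 CPM. No source says that the 3 samples of a group were separate cultures, so p-values measure the spread between these samples, which may be technical.

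Of the 8 genes, 7 had enough counts for the test, and CASP1 did not. With edgeR's quasi-likelihood test and Benjamini-Hochberg adjustment over all 12368 genes tested, 3 of the 7 (APAF1, CASP6 and CASP2) were upregulated by 4HC, with an adjusted p-value under 0.05, and 0 were downregulated. Across all genes tested 36.4% passed this threshold in either direction and 19.2% passed it as upregulated, so 3 of 7 is a count to read against a broad response. The median log2 fold change of the 7 genes was 0.18, beside 0.005 for all genes tested. In this edgeR fit, none of the 7 reached a fold change of 2 with an unadjusted p-value under 0.05, the criteria for DEGs in the methods of the study. Of all genes tested, 1.15% met them in the same fit. The study applied its criteria with DESeq2 and reported far more DEGs, so 1.15% is not the share found by the study. In bulk RNA, a change in the share of cells that express a gene and a change of its RNA per cell cannot be told apart.

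Among the apoptosome genes, APAF1 (NCBI Gene 317, chr12:98645141-98735433), the scaffold that recruits caspase-9, showed the largest change. Its level was 52.4, 54.7 and 50.1 CPM in the controls and 72.2, 77.2 and 82.8 CPM in the samples treated with 4HC. Every treated sample lay above every control. The mean rose from 52.4 ± 2.32 to 77.4 ± 5.29 CPM (SD, n = 3 per group), a fold change of 1.48 and a log2 fold change of 0.56 (SE 0.051, 95% confidence interval 0.46 to 0.66, adjusted p = 2.38e-13 by edgeR). Of all genes tested, 4.03% had a larger log2 fold change. In GENCODE release 29, 750 exonic bases of APAF1, 9.48% of them all, overlap ANKS1B on the opposite strand, and whether the libraries kept the strand is not given in the sources used here. ANKS1B was at 5.79 to 8.08 CPM in control and 5.57 to 6.82 CPM in 4HC. The part of this overlap in the APAF1 counts was not tested.

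CASP9 (NCBI Gene 842, chr1:15491401-15526534), the initiator activated on that scaffold, had a level of 24.2, 24.4 and 24.5 CPM in control and of 27, 27.2 and 25.9 CPM in 4HC. The groups did not overlap here either, and the controls were close to each other, with a coefficient of variation of 0.697%. The mean went from 24.3 ± 0.170 to 26.7 ± 0.699 CPM (SD, n = 3 per group), a log2 fold change of 0.13 (SE 0.064) with a 95% interval of 0.004 to 0.26. The adjusted p-value of edgeR was 0.1, so CASP9 was not called. On the log2(FPKM + 1) scale limma gave a log2 difference of 0.16 with an adjusted p of 0.0494, just past the threshold. Altogether 4 of the 7 genes had all treated samples above all controls, which held for 23.4% of all genes tested.

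The genes whose profile over the 6 samples was most like that of APAF1, among 10272 genes with a mean of at least 5 CPM, were SRSF12 (Pearson's r = 0.999 on log2 CPM), SPC25 (r = 0.997), a kinetochore gene, and HMGB1 (r = 0.997), a chromatin protein. These correlations describe 6 points in 2 groups and rest mainly on the distance between the groups. SPC25 rose from 23.2 ± 0.578 to 33.8 ± 2.64 CPM (n = 3 per group), a log2 fold change of 0.55, close to that of APAF1. HMGB1 rose by only 0.14 on the log2 scale, from 587 to 649 CPM, and SRSF12 had a log2 fold change of 0.12 that did not pass the test.

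CASP2 (NCBI Gene 835, chr7:143288351-143307696), the initiator of the PIDD1 complex, was at 60.3, 62.3 and 57.8 CPM in control and at 69.3, 68.0 and 66.5 CPM in 4HC. All treated samples were above all controls. The rise from 60.1 ± 2.28 to 67.9 ± 1.38 CPM (SD, n = 3 per group) was small, with a fold change of 1.13 and a log2 fold change of 0.18 (SE 0.048, 95% interval 0.08 to 0.27, adjusted p = 0.00263 by edgeR). A larger log2 fold change was found in 21.5% of all genes tested.

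CASP6 (NCBI Gene 839, chr4:109688628-109703445), an executioner that cleaves lamins, had the largest rise among the caspases that passed the test. Its values were 9.80, 10.8 and 9.05 CPM in control and 12.6, 13.5 and 13 CPM in 4HC, without overlap. The mean went from 9.87 ± 0.863 to 13.1 ± 0.446 CPM (SD, n = 3 per group), a fold change of 1.32 and a log2 fold change of 0.40 (SE 0.096, 95% interval 0.21 to 0.60, adjusted p = 0.000665 by edgeR). Its exons share 105 bases, 5.40% of their length, with MCUB on the opposite strand. MCUB was at 37.6 to 42.2 CPM in control and 41.5 to 45.3 CPM in 4HC, a log2 fold change of 0.12 that did not pass the test (adjusted p = 0.0780 by edgeR).

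**Figure D1:**
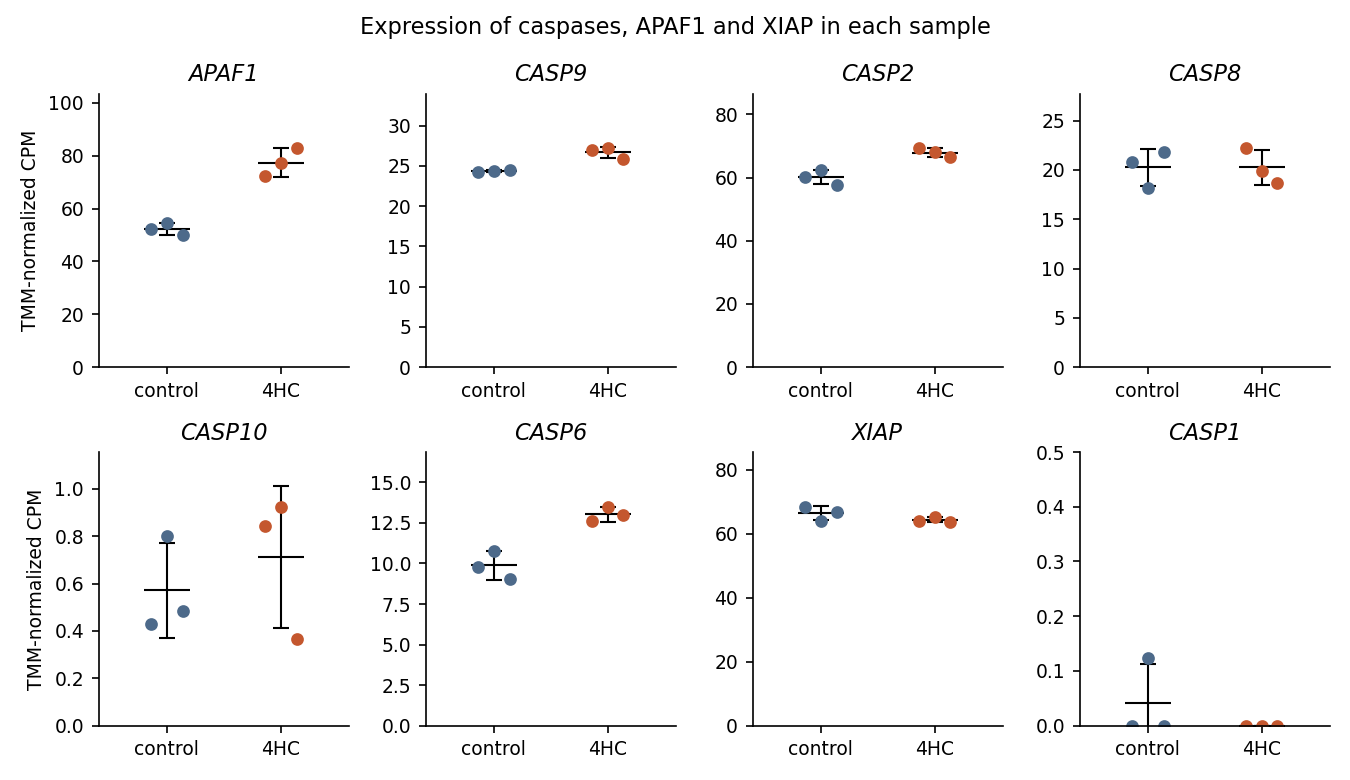
TMM-normalized CPM (y axes from 0, scaled for each gene) of the 8 genes in the 3 control (blue) and 3 4HC samples (orange), with horizontal bars for the mean and whiskers for 1 SD. The groups separate in APAF1, CASP9, CASP2 and CASP6, overlap in CASP8, CASP10 and XIAP, and CASP1 is at 0 in all but 1 control.

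The death receptor initiators did not pass the test. CASP8 (NCBI Gene 841, chr2:201233443-201287711), which is recruited through FADD, was at 20.8, 18.2 and 21.8 CPM in control and at 22.2, 19.9 and 18.7 CPM in 4HC. The groups overlapped, and the means were 20.3 ± 1.86 and 20.2 ± 1.77 CPM (SD, n = 3 per group). The 95% interval of the log2 fold change ran from -0.16 to 0.15, so changes larger than these bounds in either direction lay outside it (adjusted p = 0.978 by edgeR). CASP10 (NCBI Gene 843, chr2:201182885-201229406), a close relative and its neighbour on the chromosome, was near the limit of detection with 7, 13 and 8 counts in control and 14, 15 and 6 counts in 4HC. The highest and the lowest sample both belonged to 4HC. Its log2 fold change of 0.32 had a 95% interval of -0.47 to 1.11 (adjusted p = 0.559 by edgeR), too wide to tell a rise from a fall at this depth. The ratio of CASP10 to CASP8 within a sample was 0.0208, 0.0439 and 0.0221 in control and 0.0381, 0.0466 and 0.0197 in 4HC on the CPM scale, with overlap (exact permutation test, two-sided, p = 0.8).

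XIAP (NCBI Gene 331, chrX:123859708-123913972), the inhibitor, was at 68.5, 64.1 and 66.8 CPM in control and at 64.1, 65.3 and 63.8 CPM in 4HC. The groups overlapped. The means were 66.4 ± 2.22 and 64.4 ± 0.782 CPM (SD, n = 3 per group), and the 95% interval of the log2 fold change was -0.14 to 0.05 (adjusted p = 0.488 by edgeR). A rise of XIAP as large as that of APAF1 lay outside this interval. Within each sample, the ratio of APAF1 to XIAP in CPM was 0.765, 0.854 and 0.750 in control and 1.13, 1.18 and 1.3 in 4HC. Every treated sample had the higher ratio. The mean ratio went from 0.790 ± 0.0563 to 1.20 ± 0.0867 (SD, n = 3 per group), a difference of 0.61 on the log2 scale. The exact permutation test gave p = 0.1 (two-sided), the smallest value that 20 splits of 3 against 3 allow.

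CASP1 (NCBI Gene 834, chr11:105025443-105035591), which matures interleukin-1 beta in inflammasomes, had 2 counts in 1 control and 0 in the other 5 samples. A count of 0 allows up to 3 counts, which is 0.181 to 0.185 CPM in these libraries, and no fold change is given. CASP1 lies beside CARD16 and CARD17, which resemble only a part of it, so even its few counts are uncertain.

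**Figure D2:**
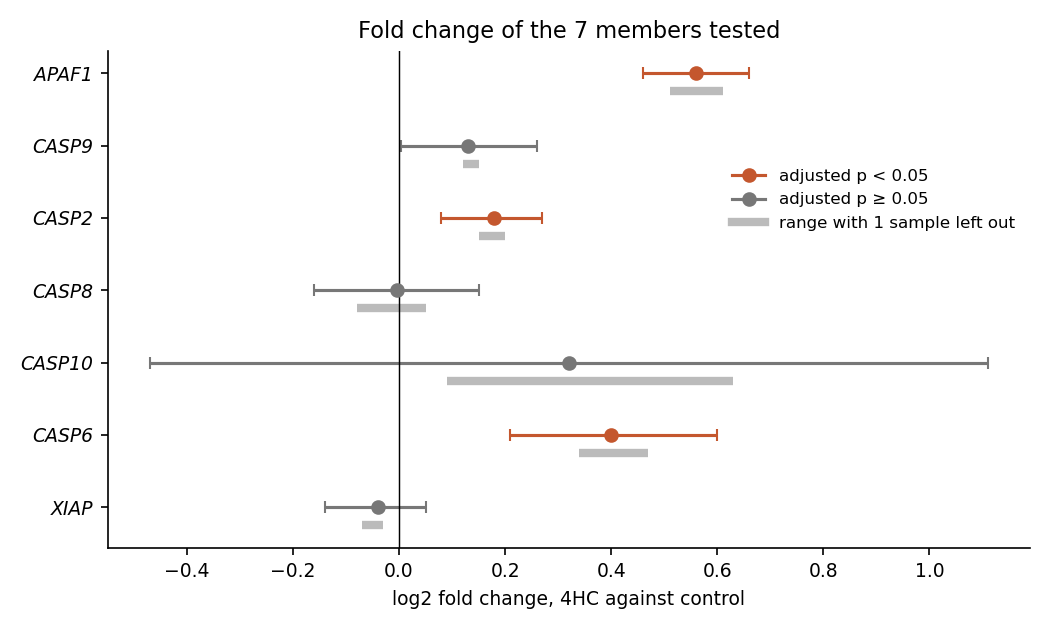
Log2 fold change (x axis, 4HC against control) of the 7 genes tested, with 95% confidence intervals as whiskers, orange at an adjusted p-value under 0.05. Grey bars give the range when 1 sample is left out, which is 0.51 to 0.61 for APAF1, 0.34 to 0.47 for CASP6 and 0.15 to 0.20 for CASP2.

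Per transcript length, in the TPM deposited by the authors, the levels of the genes could be ordered within a group. In control, CASP2 was highest with a mean of 24.8 TPM, followed by CASP9 with 21.1 TPM. CASP8 (14.8 TPM), APAF1 (13 TPM), XIAP (12.7 TPM) and CASP6 (11.6 TPM) came next, and each of them overlapped with its neighbour in that order. CASP10 was at 0.220 TPM, far below the rest. In 4HC, CASP2 (27.8 TPM) and CASP9 (23.4 TPM) were again the highest. APAF1 came next with 18.4 TPM, ahead of CASP6 (15.1 TPM) and CASP8 (14.3 TPM), which overlapped, while XIAP was at 12.2 TPM and CASP10 at 0.393 TPM. The samples of APAF1 and XIAP, which shared a range of TPM in control (12.1 to 14.0 and 12.1 to 13.1 TPM), stood apart in 4HC (17.7 to 19.5 and 12.1 to 12.3 TPM).

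The transcript table held 41 transcripts of the 8 genes, of which 23 had enough counts for the test. In edgeR's test over 42216 transcripts, 0 of the 23 passed an adjusted p-value under 0.05, which 1.29% of all transcripts did, and 5 had an unadjusted p-value under 0.05, beside 11.0% of all transcripts. The groups did not overlap in 7 of the 23, beside 20.0% of all transcripts. Expected counts of transcripts divide reads from shared exons by estimation, and they varied far more between replicates than the counts of genes.

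For APAF1 the counts were divided mainly between NM_181861, with a mean share of 65.0% in control and 64.3% in 4HC, and NM_181868, with 32.3% and 28.7%. A coding exon of 129 bases at chr12:98703371-98703499 (GRCh38, plus strand), exon 18 of 27 in NM_181861, is wholly absent from NM_181868. Differences within shared exons and other APAF1 transcripts were not compared. This exon is shown because it is a sequence that tells these 2 forms apart, and in lower case since no letter in it is singled out.
APAF1 exon 18: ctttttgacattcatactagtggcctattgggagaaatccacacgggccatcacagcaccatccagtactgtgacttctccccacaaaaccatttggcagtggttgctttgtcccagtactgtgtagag
It adds 43 codons in frame. NM_181861 had counts of 616, 538 and 517 in control and 771, 746 and 931 in 4HC, without overlap, and a log2 fold change of 0.55 (95% interval 0.26 to 0.84), the same size as that of the gene. Its adjusted p-value in edgeR was 0.115. NM_181868 had counts of 214, 316 and 300.1 in control and 399, 455 and 224 in 4HC, which overlapped. In 4HC replicate 3, where NM_181868 was low, the transcript NM_001160 took 179.8 counts, and it was listed at 0 in the other 5 samples.

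CASP8 was spread over 14 transcripts, 7 of them tested. The most abundant, NM_001080124, held a mean share of 33.9% in control and 28.6% in 4HC. The transcript NM_001080125, which encodes a longer form, stood out among the 7. Its counts were 25.0, 21.6 and 22.7 in control and 48.0, 52.9 and 42.2 in 4HC. All treated samples were above all controls while the gene as a whole did not differ detectably, and the share of the transcript in the CASP8 counts went from 6.26% to 7.43% in control to 13.1% to 16.4% in 4HC. The log2 fold change was 1.03 (SE 0.35, 95% interval 0.17 to 1.89), and its adjusted p-value in edgeR was 0.329, so the change was not called. NM_001080125 begins in an exon whose 151 coding bases at chr2:201258232-201258382 (GRCh38, plus strand) are absent from NM_001080124. A further coding exon absent from it, of 45 bases, lies at chr2:201272898-201272942. Other CASP8 transcripts were not compared. The 151 bases are shown because they lie wholly outside the exons of NM_001080124, with the start codon in capitals.
CASP8 NM_001080125: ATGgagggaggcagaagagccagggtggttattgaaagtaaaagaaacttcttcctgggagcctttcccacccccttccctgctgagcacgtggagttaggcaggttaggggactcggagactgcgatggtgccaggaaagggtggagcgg

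In the other genes, the main transcripts of CASP2 and CASP6 had values near those of the gene, and those of XIAP varied widely. NM_032982 carried 92.6% of the CASP2 counts in control and 91.0% in 4HC and had a log2 fold change of 0.15 (95% interval 0.03 to 0.27). NM_001226 carried 96.4% and 99.0% of the CASP6 counts and had a log2 fold change of 0.44 (95% interval 0.13 to 0.75). Neither passed adjustment (adjusted p = 0.291 and 0.218 by edgeR). In CASP9, XM_005246014 held a mean of 51.4% of the counts in control and 53.1% in 4HC. In XIAP, NM_001378590 was lower in 4HC, with counts of 167, 248 and 239 in control and 141, 154 and 83.2 in 4HC and a log2 fold change of -0.79 (95% interval -1.51 to -0.08, adjusted p = 0.385 by edgeR). NM_001204401, named after its values were seen, was higher in every treated sample, with counts of 99.1, 73.7 and 0 in control and 364, 105 and 204 in 4HC and a 95% interval of the log2 fold change of -1.33 to 5.22. The main XIAP transcript NM_001167 had counts of 177, 592 and 374 in the 3 treated samples, which shows how unevenly the reads of 1 gene were divided.

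**Figure D3:**
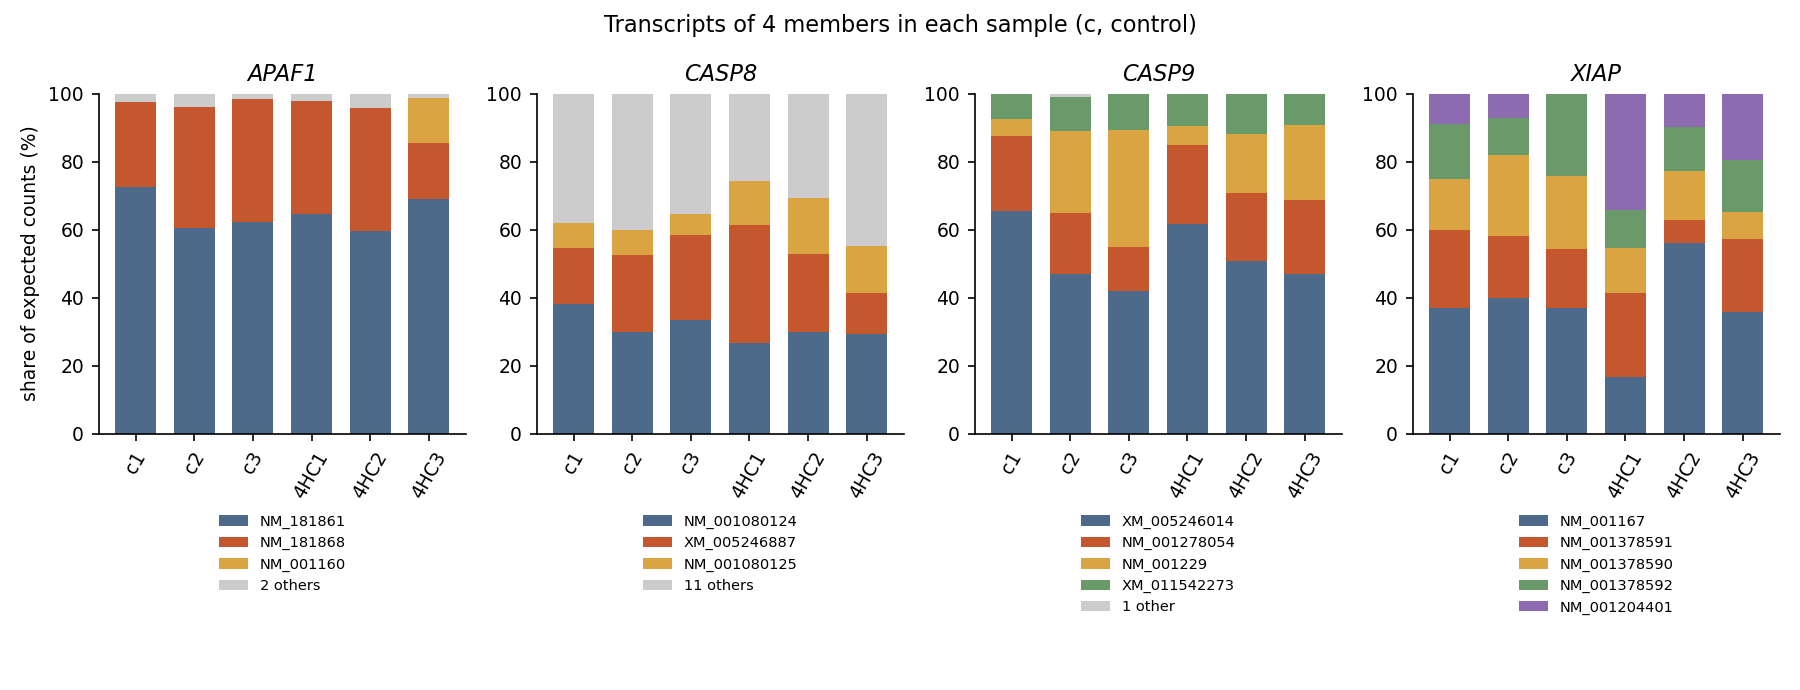
Share of each gene's expected counts (y axis, percent) taken by its transcripts in each of the 6 samples, for APAF1, CASP8, CASP9 and XIAP, with further transcripts in grey. NM_001080125 of CASP8 holds 6.26% to 7.43% in control and 13.1% to 16.4% in 4HC, but no transcript of the 8 genes passed the test (adjusted p = 0.329 by edgeR for this one), and the division of counts varies between samples of a group.

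The genes that work beside these 8 were followed by role. Of 28 tested genes among mitochondrial release factors, inhibitors, adaptors, sensors and substrates, 8 were upregulated and 6 were downregulated, beside 19.2% and 17.1% of all genes tested. Their median log2 fold change was -0.02.

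Of 8 tested adaptors, regulators and sensors that act on caspase activation, 3 were called as upregulated and 0 as downregulated. Among all genes tested these shares were 19.2% and 17.1%. PIDD1, which builds the platform of caspase-2, rose from 35.3 ± 2.04 to 62.6 ± 4.22 CPM (n = 3 per group), a log2 fold change of 0.83 (adjusted p = 8.37e-18 by edgeR), more than any of the 8 genes. RIPK1, a kinase of death receptor complexes, rose by 0.38, and CFLAR, the caspase-8 relative that restrains caspase-8, rose by 0.29 on the log2 scale. The adaptors FADD of caspase-8 and CRADD of caspase-2 had log2 fold changes of -0.06 and 0.17 and did not pass the test.

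Of 5 factors that mitochondria release, HTRA2, a protease that binds XIAP, rose (log2 fold change 0.18), and CYCS and AIFM1 fell. CYCS, the cytochrome c that activates APAF1, went from 324 ± 3.90 to 281 ± 15.6 CPM (n = 3 per group), a log2 fold change of -0.20 (adjusted p = 5.18e-06 by edgeR), the opposite direction to APAF1. Of 4 other inhibitors of apoptosis, NAIP (0.27) and BIRC2 (0.13) rose and none fell. Of 11 caspase substrates, 2 rose and 4 fell. GSDME, a pore former (0.34), and LMNA, a lamin cleaved by caspase-6 (0.12), rose, while DFFB, the nuclease of DNA laddering (-0.27), the kinases ROCK1 (-0.17) and PAK2 (-0.15) and ACIN1 (-0.11), a chromatin condensation factor, fell on the log2 scale. Of these calls, 4 were also lost with DESeq2 on all 6 samples, at adjusted p-values of 0.104 for HTRA2, 0.101 for BIRC2, 0.111 for GSDME and 0.0856 for DFFB, with log2 fold changes of 0.18, 0.12, 0.33 and -0.27. In edgeR without 1 sample, the call of HTRA2 was lost on removal of control replicate 1, control replicate 3 or 4HC replicate 2 (log2 fold change 0.15 to 0.16, adjusted p = 0.0918 to 0.117), that of BIRC2 on removal of control replicate 2, 4HC replicate 2 or 4HC replicate 3 (0.09 to 0.11, adjusted p = 0.127 to 0.183) and that of GSDME on removal of control replicate 1, control replicate 3 or 4HC replicate 1 (0.23 to 0.32, adjusted p = 0.0696 to 0.199). Likewise the call of DFFB was lost without control replicate 2 or 4HC replicate 3 (-0.24 to -0.22, adjusted p = 0.0642 to 0.0949 by edgeR), that of LMNA without control replicate 1, control replicate 3 or 4HC replicate 1 (0.08 to 0.12, adjusted p = 0.0619 to 0.143) and that of ACIN1 without control replicate 2 (-0.09, adjusted p = 0.0673).

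A further list held genes of the DNA damage response and death receptors. Of its 8 genes, 8 rose, beside 19.2% of all genes tested, with a median log2 fold change of 0.69. The list was chosen with earlier results of these data known, so this count is a description and no independent test. CDKN1A, the cell cycle inhibitor, rose from 225 ± 7.25 to 783 ± 18.0 CPM (n = 3 per group), and PMAIP1, MDM2 and BBC3 had log2 fold changes of 1.12, 0.98 and 0.77. The log2 fold change of APAF1, 0.56, lay below those of CDKN1A, PMAIP1, MDM2 and BBC3 (0.77 to 1.80). It lay within the range of the death receptors and BAX (0.48 to 0.60), which were picked out after their values were seen. It exceeded the values of CASP2, CASP6, CASP8, CASP9, CASP10 and XIAP.

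**Figure D4:**
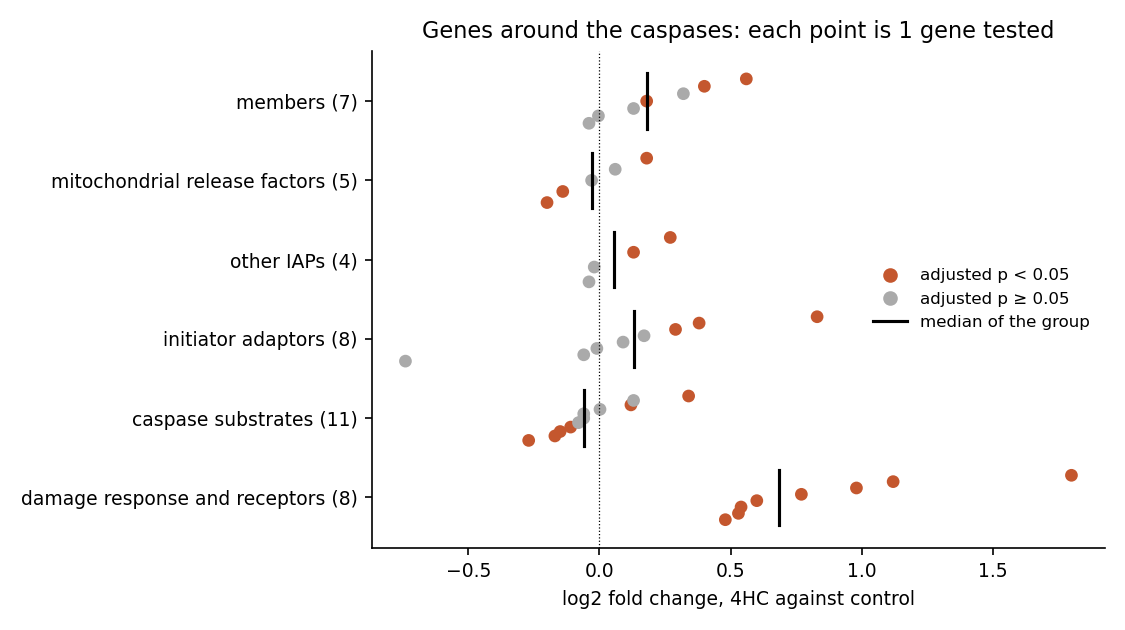
Log2 fold change (x axis, 4HC against control) of each tested gene among the 7 members and 5 groups of related genes, with the number tested in brackets, orange at an adjusted p-value under 0.05 and a black line at the median. The damage response and death receptor genes centre at 0.69, and the caspase substrates at -0.06 with 4 fallen and 2 risen.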

How the data were processed

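Reads were cleaned by the authors with SOAPnuke, and later steps ran on the Dr. Tom platform. The submitters' processing notes name HISAT2, Bowtie2, RSEM 1.3.1, DESeq2 1.4.5 and GRCh38.p13, without saying what each was used for. The authors deposited for each gene and transcript an expected count, an estimate of its reads that was not normalized, a TPM value scaled to length and library, and for genes an FPKM value. They also deposited log2 fold changes, p-values and q-values of their own comparison, which were not used.

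After rounding, the expected counts went into edgeR 4.0.16 (R 4.3.3, TMM, filterByExpr, quasi-likelihood test, condition as the only term, Benjamini-Hochberg adjustment over all features tested), and features were called at an adjusted p-value under 0.05. The test was first tried on simulated counts. Ratios were compared by an exact permutation test. Alternatives were DESeq2 1.42.0, other scalings and filters, a replicate block, limma 3.58.1 on log2 of the deposited TPM or FPKM with a pseudocount of 1 or 0.1, and removal of each sample in turn. Depth was 16133786 to 16702316 counts per sample. The limit of 3 counts for a gene without counts in a sample covers counting error only. Intervals of log2 fold changes came from the edgeR fit and include the spread between samples of a group.

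The 8 genes, the lists and the tests were chosen with earlier results of these data known. Named were all 8 genes, up to 4 called genes per list with the largest change, the 3 genes most like APAF1, and the 3 most abundant transcripts of a gene. LMNA, ACIN1, FADD, CRADD, BAX, the death receptors, ANKS1B, MCUB and the marker genes and the genes of low level were named after their values were seen. Coding sequences came from GENCODE release 29 (GRCh38), to which RefSeq names were matched by its table. Some genes of the lists are not reported here and stayed out of the list counts.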

Additional observations from a re-analysis of the deposited data

How the results depend on the processing

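APAF1, CASP6 and CASP2 kept their direction and their call under all alternatives run, and 3 genes of the 8 were called under each but one. With limma on log2(FPKM + 1), CASP9 passed as well (log2 difference 0.16, adjusted p = 0.0494), which made 4, whereas its adjusted p-value lay between 0.0552 and 0.288 elsewhere. Of 539 alternatives over the 42 log2 fold changes with an adjusted p-value, 508 left the side of the threshold as it was, 30 lost a call, 1 gained one (CASP9, above) and 0 turned the direction of one. The 30 lost calls concerned HTRA2, BIRC2, GSDME, DFFB, PAK2, LMNA and ACIN1, all genes of the lists. DESeq2 ended those of HTRA2, BIRC2, GSDME and DFFB (adjusted p = 0.0856 to 0.111), and limma on TPM or FPKM those of BIRC2, DFFB, PAK2, LMNA and ACIN1 (adjusted p = 0.0528 to 0.246). Leaving out 1 sample gave log2 fold changes of 0.51 to 0.61 for APAF1, 0.34 to 0.47 for CASP6 and 0.15 to 0.20 for CASP2, and a log2 difference of the ratio of APAF1 to XIAP of 0.55 to 0.66. The number of all genes called ranged from 3340 with DESeq2 to 4533 with a minimum of 10 counts in every sample, beside 4497 as reported.

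Whether the replicate numbers pair samples of the 2 groups could not be settled with 3 samples in a group. Deviations of equally numbered samples correlated at -0.053, 0 and 0.132. Those of unequally numbered samples correlated at -0.178 to 0.185. With the replicate block 4213 genes were called in place of 4497, and the same 3 of the 8 genes. Of the list genes it ended the call of BIRC2 (adjusted p = 0.0515).

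Depth limited CASP10, with 6 to 15 counts per sample, and CASP1, with at most 2. Transcript counts were limited by the division of shared reads. With 3 samples in a group, outlying samples could not be tested for.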

Other observations

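Many genes of the inflammatory branch around CASP1, though not all of them, were at or near 0 in these cells. The 10 genes CASP4, CARD16, CARD17, PYCARD, NLRP1, NLRP3, MEFV, GSDMD, IL1B and IL18 all failed the filter on low counts, and the highest value of any of them in any sample was 0.493 CPM, in IL18, the cytokine that caspase-1 matures. PYCARD, the adaptor that joins sensors to caspase-1, reached at most 0.0616 CPM and GSDMD, the pore former that caspase-1 opens, at most 0.0617 CPM. At this depth 3 counts are 0.181 to 0.185 CPM, so most of these genes were under the limit that a count of 0 allows. NLRC4, another sensor, was at 0.801, 0.739 and 0.724 CPM in control and at 0.302, 0.555 and 0.490 CPM in 4HC. Its groups did not overlap, and the log2 fold change of -0.74 did not pass edgeR's test (adjusted p = 0.131). CARD8, a sensor expressed in these cells, was at 12.5 ± 1.38 CPM in control and 13.3 ± 2.09 CPM in 4HC (n = 3 per group) and had a log2 fold change of 0.09 (adjusted p = 0.501 by edgeR).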
